A study of Mus musculus with 4 samples.

Results

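Vesicle trafficking genes were followed through 2 piggyBac mutant libraries made in mouse neural stem cell-like cells that are haploid. They comprise the numbered Vps genes except Vps35, Dscr3, the sorting nexins, the exocyst, COG and TRAPP subunits, the Rab GTPases, the TBC-domain Rab GAPs and the adaptor protein (AP) complex subunits. Members were taken by their symbols, with Dscr3 named singly. No read count enters the rule itself, but the members were chosen with earlier results of these data known. Of 5614 genes listed in either library, 78 belonged to this group, with 58 in library 1 and 48 in library 2. The symbol rule does not take the AP alpha subunits or partner proteins with other names, and these were counted apart. It is a rule on names, so a gene such as Vps72, which encodes a chromatin protein, would have been taken had it been listed.

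The cells carry a single chromosome set and were differentiated from haploid embryonic stem cells of 129Sv background in N2B27 medium with FGF2, EGF, LDN193189, SB431542 and a ROCK inhibitor, which was Y-27632, Thiazovivin or both. Both libraries were made from such cells by delivering a gene-trapping piggyBac plasmid together with codon-optimized transposase and selecting with G418, so the DNA of all 4 samples came from selected cells and no untransfected control is among them. Genomic DNA next to the transposon was amplified by splinkerette PCR, in which a partly unpaired adapter is ligated to cut DNA before a nested PCR. Each library is a pool of 2 samples in 1 table of reads per gene, and the labels name no treatment, time or clone by which the libraries differ. The tables hold no value per sample, so no spread between the samples of a library can be given. No test was run, and all intervals are exact 95% intervals that cover counting error only. Marker genes of the cell type cannot be checked, because insertions and not transcripts were measured.

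Proteins of this group move membrane cargo between the Golgi, endosomes, lysosomes and the plasma membrane. Rab GTPases mark each membrane, TBC-domain proteins switch them off, adaptors and sorting nexins gather cargo, retromer and retriever send it back from endosomes, and the GARP, HOPS, COG, TRAPP and exocyst complexes tether vesicles before fusion. Neural progenitors use these routes to place receptors and adhesion proteins on their surface. In a haploid cell a trapped gene has no second copy.

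The piggyBac transposon inserts at the tetranucleotide TTAA, which reads the same on both strands. The tables give a gene and no position, so the target sequence can be shown only for a fixed window of each gene, here 250 bases before to 50 after the transcription start (RefSeq, GRCm38.p6, a later build than the authors' mm9). The windows of the 3 members with more than 200 nonredundant reads in a library are printed 5′ to 3′ on the gene's strand, with TTAA in capitals. They are Dscr3 (current symbol Vps26c, chr16:94526580-94526879, minus strand), Vps53 (chr11:76179589-76179888, minus strand) and Vps13a (chr19:16780884-16781183, minus strand).
Dscr3: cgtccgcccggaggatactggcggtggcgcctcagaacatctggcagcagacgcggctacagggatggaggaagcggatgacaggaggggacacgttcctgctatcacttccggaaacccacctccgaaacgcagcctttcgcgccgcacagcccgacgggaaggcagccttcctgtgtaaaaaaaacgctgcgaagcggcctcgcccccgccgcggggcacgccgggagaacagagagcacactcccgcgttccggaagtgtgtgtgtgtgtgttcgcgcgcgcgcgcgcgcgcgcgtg
Vps53: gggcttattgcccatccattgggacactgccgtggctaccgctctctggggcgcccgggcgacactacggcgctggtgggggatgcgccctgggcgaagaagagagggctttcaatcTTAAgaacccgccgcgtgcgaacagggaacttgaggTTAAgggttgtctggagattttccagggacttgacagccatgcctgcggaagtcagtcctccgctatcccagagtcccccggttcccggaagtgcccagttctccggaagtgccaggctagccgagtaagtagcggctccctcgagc
Vps13a: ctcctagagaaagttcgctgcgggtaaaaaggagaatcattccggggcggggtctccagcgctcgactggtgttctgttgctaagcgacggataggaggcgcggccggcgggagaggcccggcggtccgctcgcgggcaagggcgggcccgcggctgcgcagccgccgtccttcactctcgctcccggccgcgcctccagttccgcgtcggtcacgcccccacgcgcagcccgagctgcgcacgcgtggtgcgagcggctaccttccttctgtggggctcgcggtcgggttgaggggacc

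The Vps53 window holds 2 TTAA matches, and those of Dscr3 and Vps13a hold 0. A TTAA was present in 28 of the 82 windows that the RefSeq table gives for 65 of the 78 members (34.1%). Among members with 10 or more reads in a library, 3 of the 18 windows given for 16 of these 18 members held one. The same count was 47.8% over 20488 windows of coding genes and 44.0% over the 5818 windows of listed coding genes. These shares were not tested against each other, and the windows leave out the gene bodies.

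Members were listed at a higher share than coding genes in general. RefSeq holds 213 coding genes with a matching symbol. Library 1 listed 58 of them, or 27.2% (interval 21.4 to 33.7), against 19.9% of all 21031 coding genes. Library 2 listed 48, or 22.5% (17.1 to 28.7), against 15.0%. Both libraries listed 28 of the 213, or 13.1% (8.92 to 18.4), against 8.25%, and at least 1 library listed 78, or 36.6% (30.1 to 43.5), against 26.6%. At 2 or more nonredundant reads, library 1 held 36 members (16.9%, 12.1 to 22.6) against 9.19% of coding genes, and library 2 held 21 (9.86%, 6.21 to 14.7) against 6.07%. At 10 or more, library 1 held 11 members (5.16%, 2.61 to 9.05) against 2.37% of coding genes, and library 2 held 7 (3.29%, 1.33 to 6.65) against 1.40%.

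Gene length moved with the difference in listing at 1 or more reads. All coding genes were ordered by RefSeq length into 10 classes of equal size, class 10 being the longest. In classes 9 and 10, which hold 31.5% of the group's genes, library 1 listed 37 of 67 members (55.2%, 42.6 to 67.4) beside 57.3% of all 4206 genes there. Library 2 listed 31 of the 67 (46.3%, 34.0 to 58.9) beside 43.8%. In classes 6 to 8 the shares were 20.5% (17 of 83 members) and 20.5% (all genes) in library 1, and 16.9% (14 of 83) and 16.1% in library 2. In classes 1 to 5 they were 6.35% (4 of 63) and 4.48% in library 1, and 4.76% (3 of 63) and 2.86% in library 2. Within each band of length, the background share lay inside the members' interval in both libraries. In class 10, 17.9% of members (6.06 to 36.9) had 10 or more reads in library 1, beside 13.5% of all genes there. In library 2 the shares were 10.7% (2.27 to 28.2) and 7.47%. The shares at 2 or more reads were not split by length.

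**Figure D1:**
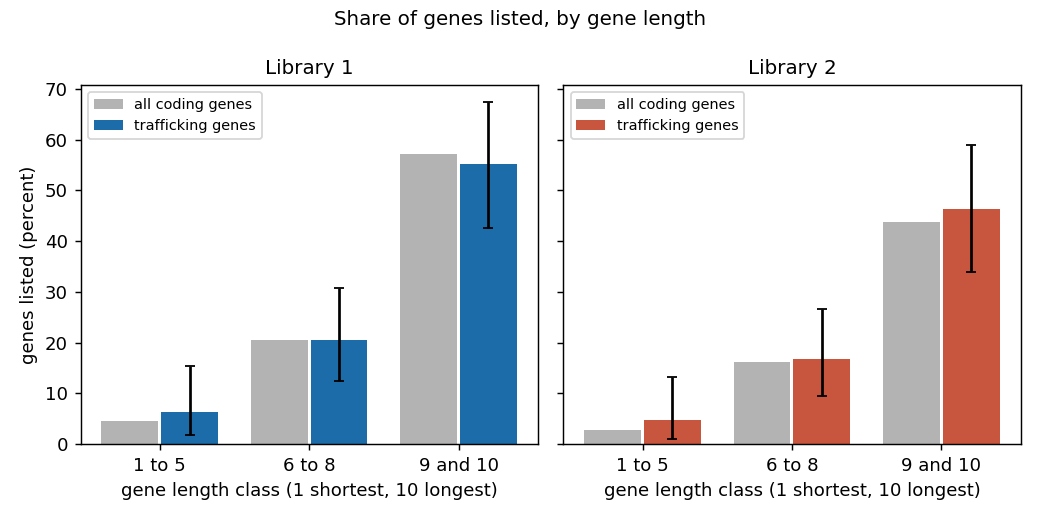
Share of genes listed in library 1 (left) and library 2 (right), in percent, for 3 bands of gene length class. Grey bars are all coding genes, coloured bars are the trafficking genes, and error bars are exact 95% binomial intervals of the coloured bars; in classes 9 and 10 the trafficking genes stand at 55.2% and 46.3%, beside 57.3% and 43.8% of all genes.

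The number of listed genes differed between families. TBC-domain Rab GAPs were listed for 20 of 32 genes, sorting nexins for 15 of 30, exocyst genes for 6 of 10 and all 4 Vps13 genes were listed. Rab GTPases were listed for 14 of 59 genes, AP subunits for 6 of 26, TRAPP for 3 of 15, COG for 3 of 8, HOPS and CORVET for 2 of 8 and ESCRT for 1 of 9. Among the longest genes (classes 9 and 10), 14 of 17 TBC genes (82.4%, 56.6 to 96.2), 9 of 11 sorting nexins and 7 of 12 Rab genes (58.3%, 27.7 to 84.8) were listed, beside 69.3% of all genes of that length. In classes 6 to 8, 5 of 11 TBC genes, 5 of 11 sorting nexins and 6 of 27 Rab genes (22.2%, 8.62 to 42.3) were listed, beside 31.3%. TRAPP genes were listed for 1 of 5 in the longest classes (20.0%, 0.505 to 71.6). These intervals are wide and each holds the share of all genes, so no family stood apart from genes of like length at this number of genes.

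**Figure D2:**
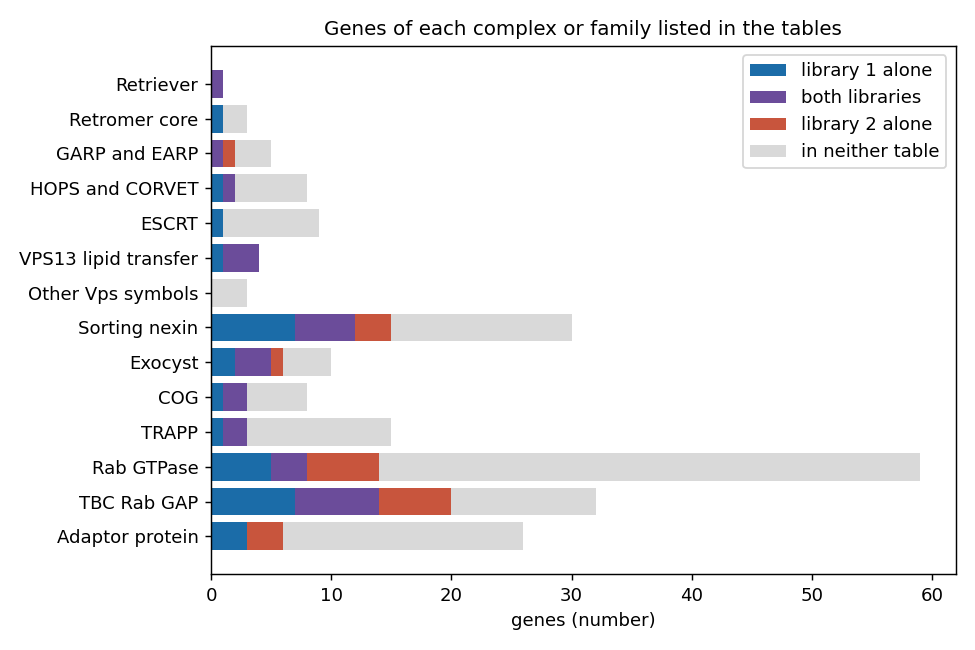
Number of genes of each complex or family listed in library 1 alone, in both libraries, in library 2 alone, or in neither table. The Rab GTPases form the longest bar with 59 genes, of which 45 are in neither table, and the TBC-domain Rab GAPs have 20 of 32 listed.

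Endosomal recycling and retrograde complexes held the members with most reads. Dscr3 encodes a retriever subunit with the arrestin-like fold of the retromer protein VPS26, in a complex that returns integrins and other cargo from endosomes to the cell surface. It had 5 nonredundant and 17 redundant reads in library 1, and 994 and 36356 in library 2. Dscr3 was the 6th gene of library 2 by nonredundant reads, with 2.04% of the total (1.92 to 2.17), and shared place 694 in library 1. Relative to each library total, its nonredundant reads were 226 times higher in library 2 (96.6 to 698), and its redundant reads 1444 times. Its retriever partner Vps35l, deposited under the name 9030624J02Rik and so outside the symbol rule, had 1 read in library 1 and no entry in library 2.

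Vps53, a subunit shared by the GARP and EARP tethers that receive endosome-derived vesicles at the trans-Golgi network and in recycling, went the other way. It had 467 nonredundant and 11058 redundant reads in library 1, and 1 and 2 in library 2. It held 0.842% of library 1 (0.768 to 0.922), as the 18th gene. Relative to the totals, its nonredundant reads were 411 times higher in library 1, and with 1 read in library 2 the interval runs from 73.3 to 16253. Vps54, its GARP partner, had 1 read in library 2 alone, and Vps50, Vps51 and Vps52 were in neither table. Among the core retromer genes, Vps26b had 1 read in library 1, and Vps26a and Vps29 were in neither table. Absence was common in general, as 26.6% of all coding genes were listed in at least 1 library. For retriever and for GARP and EARP, the high reads lay in 1 subunit and 1 library. High reads were rare in general, with 10 or more in 2.37% of coding genes in library 1 and 1.40% in library 2. Of the 822 genes with 10 or more summed reads, 50.9% were at least 4-fold higher in library 1 and 30.5% in library 2.

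The Vps13 genes encode very long bridge-like proteins that carry lipids between organelles, and all 4 fall in the longest length class. Vps13a, the gene of chorein, had 206 nonredundant and 908 redundant reads in library 1 and no entry in library 2, which makes it at least 60.4-fold higher in library 1 against a floor of 3 reads. This floor is used for every gene with no entry in a library and leaves out the counting error of the other library; the lower exact limit of the ratio, given in parentheses after each such value, was 48.7 here. The other members were low in both libraries. Vps13b had 6 and 3 nonredundant reads in libraries 1 and 2, Vps13c 4 and 1, and Vps13d 2 and 2.

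Sorting nexins bind endosomal phosphoinositides through a PX domain, and some bend membranes through a BAR domain. Snx18, a PX-BAR protein with an SH3 domain that acts in endocytosis, had 91 nonredundant and 307 redundant reads in library 1 and none listed in library 2, which is at least 26.7-fold (21.3) higher in library 1. Snx5, which pairs with Snx1 or Snx2 on retrograde tubules, had 1 read in library 1 and 15 in library 2, and its ratio of 17.1 has an interval from 2.62 to 718. Snx29 had 5 and 10 reads, 2.27 times higher in library 2 with an interval of 0.708 to 8.48 that includes no difference. The other 12 listed sorting nexins had 1 to 6 summed reads, with Snx15 at 4 and 2 and Snx27, the PDZ-domain cargo adaptor of retromer, at 3 and 1. The other genes of that coat, Snx1, Snx2, Snx6 and Snx32, were in neither table. Of all coding genes, 26.6% were listed in at least 1 library.

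Among tethers of secretory and Golgi traffic, exocyst genes were listed most fully when gene length is left aside. In length classes 9 and 10, 4 of 4 exocyst, 2 of 2 COG and 1 of 5 TRAPP genes were listed, beside 69.3% of all genes. The exocyst holds secretory vesicles at the plasma membrane. Exoc6b had 105 nonredundant and 265 redundant reads in library 1, against 1 and 350 in library 2. By nonredundant reads it was 92.3 times higher in library 1 (16.2 to 3681), but by redundant reads 1.12 times, so the lean of this gene depends on which count is read. Exoc4 had 13 nonredundant reads in library 1 and 1 in library 2 (ratio 11.4, 1.72 to 486), and Exoc2 had 4 and 1. Exoc6 had 3 and Exoc3 1 in library 1 alone, and Exoc1 had 1 in library 2 alone.

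TRAPP complexes activate Rab1 and Rab11 at the Golgi. Trappc9, a subunit of TRAPPII, had 62 nonredundant reads in library 1 and 1 in library 2, a ratio of 54.5 (9.43 to 2188). Trappc11 had 1 and 2 and Trappc6a 2 and 0. COG, the tether of intra-Golgi transport, had Cog5 at 2 and 1 reads, Cog4 at 3 and 0 and Cog7 at 1 and 1. Of the HOPS and CORVET tethers of late and early endosomes, Vps33a had 1 and 2 reads and Vps41 1 and 0. Vps37a, an ESCRT-I subunit in the sorting of receptors for degradation, had 1 nonredundant and 8 redundant reads in library 1. None of the COG, HOPS, CORVET or ESCRT members reached 10 reads in a library. Over all coding genes, only 2.37% did so in library 1 and 1.40% in library 2.

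Rab GTPases with 10 or more reads lay in both libraries, in different genes, as was usual in the series. Of all coding genes, 498 reached 10 reads in library 1 and 294 in library 2. Only 43 genes of the series did so in both. Rab37, a Rab of secretory granules, had 46 nonredundant and 343 redundant reads in library 1 and 1 and 1 in library 2, a nonredundant ratio of 40.4 (6.91 to 1632). Rab6a, the Golgi Rab, had 27 in library 1 and no entry in library 2, at least 7.91-fold (6.01) higher in library 1. Rab10, which directs vesicles to the plasma membrane, was listed in library 2 alone with 47 nonredundant and 254 redundant reads, at least 17.8-fold (13.9) higher there. Rab31, a Rab of trans-Golgi and endosomal membranes, had 1 and 15 reads, a ratio of 17.1 (2.62 to 718) towards library 2. The other 10 listed Rab genes had 1 to 4 summed reads, with Rab3c, a synaptic vesicle Rab, at 1 and 3. The early endosomal Rab5a, Rab5b and Rab5c, the late endosomal Rab7 and the recycling Rab11a were among the 45 in neither table. They fall in length classes 6 to 8, where 31.3% of all coding genes were listed in at least 1 library, so absence was common there.

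TBC-domain proteins speed up GTP hydrolysis by Rabs and so switch them off. Tbc1d10b had 1 nonredundant read in library 1 and 103 nonredundant and 1440 redundant reads in library 2, a nonredundant ratio of 117 (20.6 to 4671). It falls in length class 4, the shortest class of any member with 10 or more reads. Rabgap1, a GAP for Rab6, had 14 reads in library 2 alone, 5.31-fold higher against the floor, with a lower exact limit of 3.77 that lies under 4-fold. Tbc1d12 had 17 reads in library 1 alone, 4.98-fold higher against the floor with a lower exact limit of 3.63, and 3.43-fold against the floor when the 10 genes with most reads are left out of each total. Tbc1d22b had 13 in library 1 alone, 3.81-fold higher against the floor with a lower exact limit of 2.68. The other 16 listed members had 1 to 9 summed reads. Among these, Tbc1d5, a GAP for Rab7 that binds retromer, had 8 and 1, and Rabgap1l 6 and 2.

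Adaptor protein complexes link cargo to clathrin and other coats. Ap1g1, the gamma subunit of the AP-1 adaptor at the trans-Golgi network, had 44 nonredundant and 75 redundant reads in library 1 and no entry in library 2, at least 12.9-fold (10.1) higher in library 1. Ap4e1 had 2 reads in library 1 alone and Ap4b1 2 in library 2 alone, both subunits of AP-4. Ap2b1 and Ap3b1 had 1 each in library 2, and Ap3b2, the neuronal form of the AP-3 beta subunit, had 1 in library 1.

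**Figure D3:**
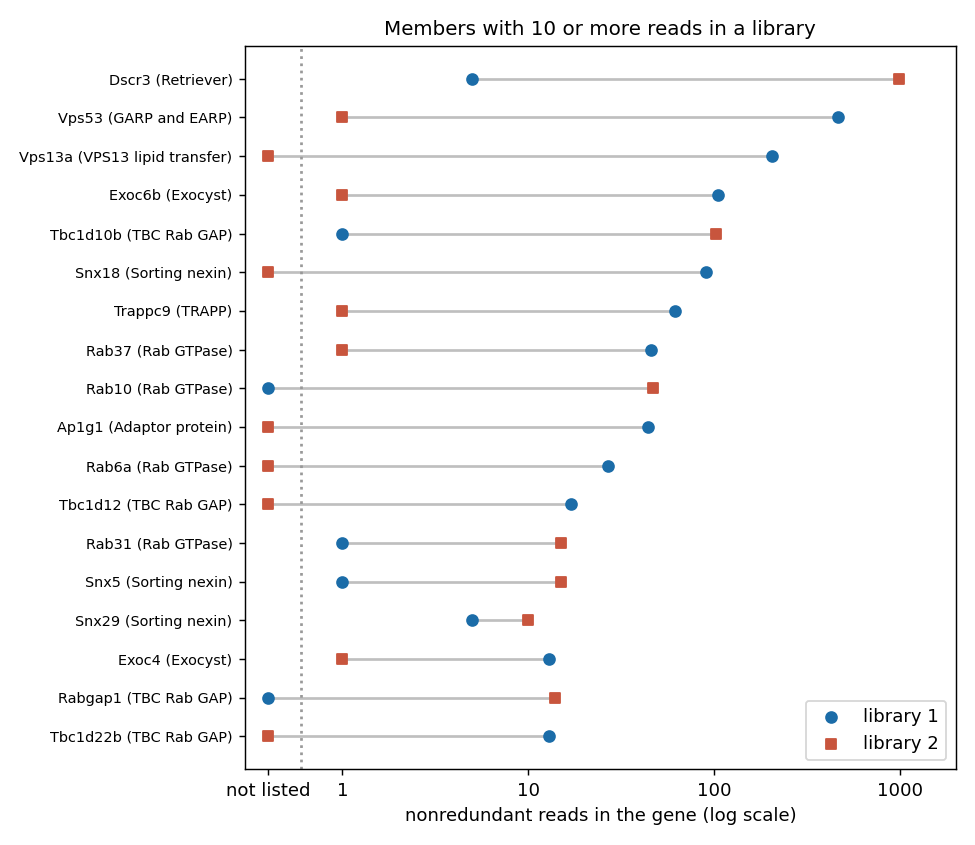
Nonredundant reads on a log scale for the 18 members with 10 or more reads in a library; circles are library 1, squares are library 2, and points left of the dotted line are genes not listed in that library. Snx29 has the shortest line, with 5 and 10 reads, and Dscr3 (5 and 994) and Vps53 (467 and 1) stand at the top.

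These genes, like those of the whole series, were seldom high in both libraries. Of the 18 members with 10 or more summed reads, 10 were at least 4-fold higher in library 1 relative to the library totals (55.6%, 30.8 to 78.5), against 50.9% of the 822 such genes in the whole series. At least 4-fold higher in library 2 were 6 (33.3%, 13.3 to 59.0), against 30.5%. Genes not listed in a library entered with the floor of 3 reads, while counts of 1 or 2 entered as they were. A gene with no entry can thus show a smaller fold than a gene with 1 read. Tbc1d22b (13 and 0 reads) stood at 3.81-fold and Exoc4 (13 and 1) at 11.4-fold. Snx29 and Tbc1d22b were the 2 members past neither limit, and for Tbc1d22b this rests on the floor. No member had 10 or more reads in both libraries, as 43 of the 1738 shared genes of the series did, and 7 of the 28 shared members had at least 2 reads in each (25.0%, against 38.1% of all shared genes). Both series-wide shares of one-sided genes lay inside the members' intervals. By redundant reads, 15 of these 16 one-sided members were also past 4-fold the same way, with ratios of 10.2 to 8189, and the exception was Exoc6b.

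As a group, members held 1206 nonredundant reads, or 2.18% of library 1 (2.06 to 2.30), and 1256, or 2.58% of library 2 (2.44 to 2.72), while making up 1.39% and 1.52% of the listed genes. A single gene set much of each value, and that of library 2, Dscr3, is the member named singly in the rule. Without Vps53 the share of library 1 was 1.33% (1.24 to 1.43), and without Dscr3 the share of library 2 was 0.537% (0.474 to 0.606). Vps53 held 38.7% of the members' nonredundant reads in library 1, and Dscr3 held 79.1% in library 2. The median listed member had 2 reads in library 1 and 1 in library 2, beside 1 over all listed genes in each. Exactly 1 read was found for 22 of 58 members in library 1 (37.9%, 25.5 to 51.6, against 53.7% of all listed genes) and for 27 of 48 in library 2 (56.3%, 41.2 to 70.5, against 59.7%). These shares were not split by gene length.

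Redundant reads gave Dscr3 and Vps53 larger shares of their libraries than nonredundant reads did, and several other leading members smaller ones. Dscr3 held 2.80% of the redundant reads of library 2 and Vps53 1.26% of those of library 1. Vps13a held 0.372% of nonredundant and 0.103% of redundant reads in library 1, and Tbc1d10b 0.211% and 0.111% in library 2. The ratio of redundant to nonredundant reads was 36.6 for Dscr3 in library 2 and 23.7 for Vps53 in library 1, beside 26.7 and 15.8 over the library totals. Tbc1d10b had 14.0 in library 2, Rab37 7.46 and Vps13a 4.41 in library 1, and Ap1g1 1.70 in library 1. All members together gave 11.6 in library 1 and 30.8 in library 2. Without Vps53 and Dscr3 the members gave 3.97 and 8.97. Both counts were equal in 27 of 58 members in library 1 (46.6%, against 56.4% of all listed genes) and in 24 of 48 in library 2 (50.0%, against 56.2%).

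A few members had many redundant reads for few nonredundant reads. The single nonredundant read of Exoc6b in library 2 came with 350 redundant reads, a number reached by 8 of the 1891 genes with a single read there. Exoc2 had 201 redundant reads for 4 nonredundant in library 1, Tbc1d32 had 40 for 2 in library 2, and Tbc1d2b had 33 for 2 in library 1. Across all genes with a single nonredundant read, 86 of 2246 in library 1 (3.83%) and 105 of 1891 in library 2 (5.55%) had 10 or more redundant reads. Among the members with a single read it was 1 of 22 in library 1 (Exoc3, 11 redundant reads) and 2 of 27 in library 2 (Exoc6b and Exoc4).

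**Figure D4:**
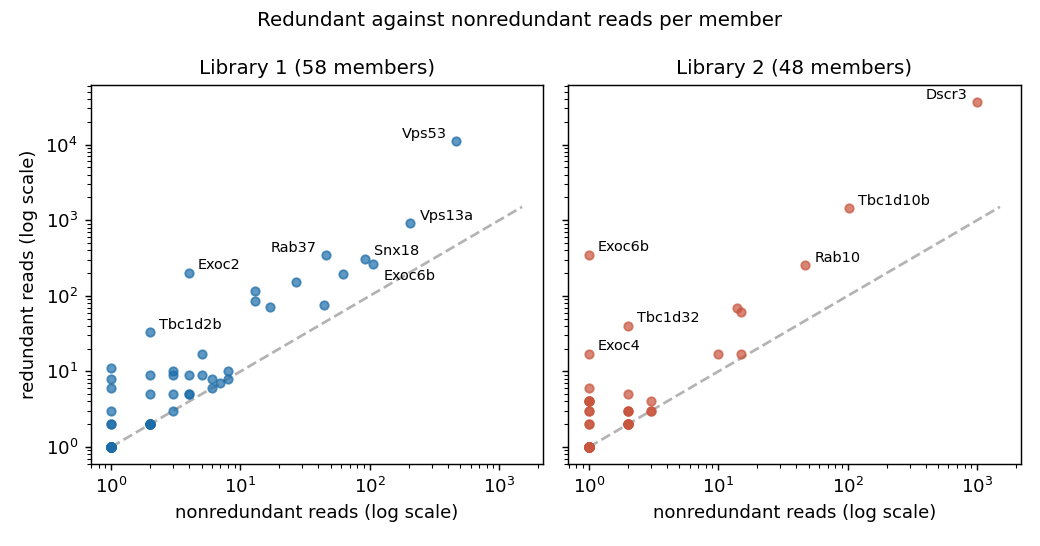
Redundant against nonredundant reads, both on log scales, for the 58 members listed in library 1 (left) and the 48 in library 2 (right); the dashed line marks equal counts. Vps53 (467 and 11058) and Dscr3 (994 and 36356) lie at the upper right, and Exoc6b lies far above the line in library 2 with 1 nonredundant and 350 redundant reads.

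Genes of the same pathways with other names were counted from a separate list of 150, chosen with earlier results of these data known. Its shares are description only and were not tested. Library 1 listed 47 of them (31.3%) and library 2 listed 42 (28.0%), beside 19.9% and 15.0% of all coding genes, with 20 in both; gene length was not compared for this list. Sorcs1, a sorting receptor of the Vps10 family, had 8 and 143 nonredundant reads in libraries 1 and 2. Dennd1b, an exchange factor that activates Rab35, was high in both with 97 and 101 reads, which none of the members was. Dennd4c, an exchange factor for Rab10, had 49 and 1. The clathrin heavy chain gene Cltc had 20 reads in library 2 alone, the retriever-associated Commd10 11 and 1, the coatomer subunit gene Copb1 11 and 1, and Ptpn23, an ESCRT-associated protein, 13 and 1.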

How the data were processed

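The 4 samples form 2 libraries by the table each label names, and each deposited table pools 2 samples. Both value columns are raw whole-number counts of nonredundant and redundant reads per gene by the authors, without normalization, per the file headers and values. CASAVA, BWA and build mm9 are named in the submitters' processing notes. The rule that assigned reads to genes and the meaning of nonredundant are not stated in the labels or file headers.

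Depth was 55442 nonredundant and 877870 redundant reads in library 1, and 48750 and 1300140 in library 2. These are PCR reads with no molecular identifiers, so they do not count molecules. Whether nonredundant reads follow the number of insertions cannot be told, because their meaning is not stated. Intervals cover counting error only.

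Symbols were matched through transcripts, then symbol or synonym, to a RefSeq table of GRCm38.p6 (5612 of 5614 genes; all 78 members), which gave coding genes and length classes. None of the 18 members with 10 or more reads overlapped another listed gene there. Shares have exact Clopper-Pearson intervals and ratios of reads over library totals exact conditional binomial intervals (scipy 1.17.1); a count of 0 was set to 3 reads per library. The ratio calculation was tried on simulated independent counts without PCR copies, so that trial does not show how well the intervals suit these data. Named were members with 10 or more reads in a library, up to 3 per family by summed reads, and other list genes with 10 or more; members singled out for their redundant reads or their absence, and other low members, were chosen after their values were seen. The members and lists were chosen with earlier results of these data known. Alternatives were read minima, redundant reads, current symbols, chromosomes, scaling and fold limits.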

Additional observations from a re-analysis of the deposited data

How the results depend on the processing

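No paired analysis was possible because the tables carry no column per sample, and leaving out a sample could not be run for the same reason. With a minimum of 2 nonredundant reads, members numbered 36 in library 1, 21 in library 2, 7 in both and 50 in either. With a minimum of 10 they numbered 11, 7, 0 and 18. Of the 1738 genes of the series in both libraries, 663 had at least 2 reads in each and 43 at least 10. The counts in either library at these minima have no share over all genes beside them. With a minimum of 2 redundant reads, 13 were in both, a count with no share over all genes beside it. Then 42 and 32 were in libraries 1 and 2, or 19.7% and 15.0% of the group beside 11.7% and 8.40% of coding genes. The members' share of reads was 1.59% and 2.98% of redundant reads in libraries 1 and 2, 1.33% and 0.537% without the leading member, and 2.60% and 0.931% without the 10 genes with most reads of each library, among which is Dscr3. Members at least 4-fold higher in library 1 numbered 17 by redundant reads, of 28 with 10 or more such reads (60.7%, beside 53.7% of 1505 such genes in the series). With at least 30 summed reads, a minimum that fewer members reach, 3 were higher in library 2. No share over all genes is given at this minimum. Dscr3 was 1444 times higher in library 2 by redundant reads. Of 40 recomputed values, the other 22 lay within 1.5 times the reported count or inside the interval of the reported value. Among these 22 is the Vps53 ratio towards library 1, which was 8189 by redundant and 411 by nonredundant reads. It is counted there only because its interval is wide, from 73.3 to 16253. Current symbols added 1 gene, Vps35l. Genes with 1 read and genes not listed are not separated at this depth.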

Other observations

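Among pathway genes with other names, low nonredundant reads sometimes came with many redundant reads. Trip11, the Golgi tether GMAP-210, had 1 nonredundant and 107 redundant reads in library 2, and Uso1, the p115 tether, had 1 and 26 in library 1. Rab3gap1, a subunit of the Rab3 GAP complex, had 7 nonredundant and 170 redundant reads in library 2 and 1 and 2 in library 1. Sec24b, a COPII coat subunit, had 2 and 44 in library 2. Rabgef1, the exchange factor of Rab5, had 8 nonredundant reads in library 2 alone. Rab5a, Rab5b and Rab5c were in neither table, as were most coding genes. Gcc2, a golgin of the trans-Golgi network, had 7 reads in library 1 alone.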
